A study of Mus musculus with 18 samples.

Results

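The regions described here are the segments with the most counted CpG cytosines in a comparison of whole-genome bisulfite sequencing between Dnmt3a+/+ (WT) and Dnmt3a R878H/+ mice: every autosomal region in which at least 31 CpG cytosines were counted. They numbered 1255 of the 411770 regions listed for splenic CD11b+ cells (CD11b marks myeloid cells) and 2298 of the 553467 listed for splenic CD4+ cells (CD4 marks helper T cells). They are called high-count regions below. The choice rests on the number of cytosines, not on their density, and on chromosome, and uses no methylation value. DNA came from 4 mice of each genotype for each cell type, isolated from the spleen on magnetic columns; the R878H/+ CD11b+ group has 6 entries, of which replicates 3 and 4 hold a pair each. R878H/+ mice carried 1 mutant and 1 WT copy of *Dnmt3a*, the mutant copy being switched on in blood cells by a constitutive *Vav1-iCre* transgene on a C57BL/6 background, whereas Dnmt3a+/+ stands for mice that lacked either the mutant allele or the Cre. The labels give neither the age nor the sex of the animals. The study's methods state in general that mice were matched for sex and age, and that males and females were pooled.

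DNMT3A places methyl groups on cytosines that were unmethylated, mostly where a cytosine is followed by a guanine (CpG). Most CpGs of a mammalian genome are methylated, while CpG-dense stretches at gene starts, the CpG islands, are usually kept free of it. Mouse R878H corresponds to the R882H hotspot of human clonal hematopoiesis and acts as a dominant negative on the methylation activity of the enzyme.

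The kinds of sequence that passed the limit of 31 cytosines differed widely, and 5 stretches of the mm10 plus strand show this range, with every CpG in capitals. The first stretch (chr6:52204051-52204350) lies in the region with the largest loss in CD11b+ cells, at the *Hoxa5* promoter, and the second (chr3:88536502-88536801) in that of CD4+ cells, in an exon of *Mex3a*. The third (chr6:86525336-86525635) is the centre of the largest gain in CD11b+ cells, at the *Pcbp1* promoter, and the fourth (chr2:154353662-154353961) that of the largest gain in CD4+ cells, in *Cdk5rap1*. The fifth (chr17:39845249-39845548) is the centre of the region with the most cytosines, in a copy of the ribosomal RNA gene, and was chosen after its values were seen. The 300 bases held 33 CpGs at *Hoxa5*, 23 at *Mex3a*, 23 at *Pcbp1*, 4 at *Cdk5rap1* and 37 in the ribosomal RNA gene copy.
Hoxa5: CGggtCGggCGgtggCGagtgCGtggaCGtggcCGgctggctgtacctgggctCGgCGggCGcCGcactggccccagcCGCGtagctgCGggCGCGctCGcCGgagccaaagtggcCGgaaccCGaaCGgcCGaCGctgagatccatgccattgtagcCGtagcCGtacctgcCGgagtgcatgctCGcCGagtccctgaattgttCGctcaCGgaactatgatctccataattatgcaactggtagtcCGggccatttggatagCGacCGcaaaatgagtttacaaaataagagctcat
Mex3a: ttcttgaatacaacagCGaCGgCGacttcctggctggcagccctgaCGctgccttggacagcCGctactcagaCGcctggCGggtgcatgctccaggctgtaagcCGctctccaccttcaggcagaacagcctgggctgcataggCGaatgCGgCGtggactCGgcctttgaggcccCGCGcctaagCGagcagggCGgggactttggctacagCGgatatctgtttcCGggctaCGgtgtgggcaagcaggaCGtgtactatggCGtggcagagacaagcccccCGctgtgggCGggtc
Pcbp1: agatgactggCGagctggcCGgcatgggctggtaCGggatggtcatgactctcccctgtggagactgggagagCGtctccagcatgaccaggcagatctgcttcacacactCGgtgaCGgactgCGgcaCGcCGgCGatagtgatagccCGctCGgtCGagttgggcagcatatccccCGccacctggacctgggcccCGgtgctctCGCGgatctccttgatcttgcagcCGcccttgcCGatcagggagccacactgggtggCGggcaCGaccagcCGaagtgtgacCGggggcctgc
Cdk5rap1: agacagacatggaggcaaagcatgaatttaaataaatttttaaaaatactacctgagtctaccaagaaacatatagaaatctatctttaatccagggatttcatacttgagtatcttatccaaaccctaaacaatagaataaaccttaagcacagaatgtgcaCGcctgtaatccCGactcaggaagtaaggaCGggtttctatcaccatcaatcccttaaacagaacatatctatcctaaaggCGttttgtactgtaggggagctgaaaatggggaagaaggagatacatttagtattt
Ribosomal RNA gene copy: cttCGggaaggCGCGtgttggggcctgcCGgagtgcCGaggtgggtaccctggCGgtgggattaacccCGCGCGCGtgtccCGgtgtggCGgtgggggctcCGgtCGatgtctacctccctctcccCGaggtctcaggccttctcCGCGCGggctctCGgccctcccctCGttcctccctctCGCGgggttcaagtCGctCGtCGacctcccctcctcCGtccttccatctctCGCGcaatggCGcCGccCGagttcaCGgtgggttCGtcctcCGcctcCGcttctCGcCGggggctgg

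Each region carries a mean methylation level per genotype, taken over its cytosines and over the mice, and the difference used throughout is R878H/+ minus WT in percentage points. Neither the values of individual mice nor the number of reads behind a mean can be seen in the tables, so the differences below have no error and no test across mice, and regions are not replicates of a genotype. The columns carry no names of their own; the ninth was read as WT and the tenth as R878H/+. Loss and gain name a lower and a higher mean in R878H/+ cells. A mean of 50% cannot tell cells that are all partly methylated from a mixture of methylated and unmethylated cells. The limits of each region were set by the segmentation of the same methylation data, so a long region is also one along which the genotypes differed in a uniform way, and the number of cytosines is not independent of the difference.

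Cytosines of both strands were counted, so that 31 cytosines can stand for as few as 15 CpG dinucleotides. The median region held 34 cytosines in each cell type, with a maximum of 189 in CD11b+ and 103 in CD4+ cells. Median length was 1319 bp (maximum 3486) in CD11b+ and 1348 bp (maximum 4004) in CD4+ cells, against 503 and 496 bp for autosomal regions with 30 or fewer cytosines. The regions covered 1.69 Mb in CD11b+ and 3.20 Mb in CD4+ cells. Of the CpG cytosines that mm10 has inside them, a median of 68.6% was counted in CD11b+ and 75% in CD4+ cells, and the rest do not enter the means. Most regions were not dense in CpGs: the median was 1.95 CpG dinucleotides per 100 bp in CD11b+ and 1.76 in CD4+ cells, and observed over expected CpG 0.34 and 0.32.

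In CD11b+ cells, the median level of the high-count regions was 70.3% in WT and 49.0% in R878H/+ mice, and the median difference was -15.6 points (quartiles -23.9 and -7.13). In CD4+ cells the corresponding levels were 78.8% and 60.7%, with a median difference of -13.6 points (quartiles -23.5 and -7.33). The regions with 30 or fewer cytosines started higher, at 89% in CD11b+ and 89.98% in CD4+ WT cells, and differed by -6.53 and -6.83 points. The high-count regions therefore began at a lower WT level and lay farther below it in the mutant cells of both types. These medians depend on how cytosines are counted: regions with at least 31 CpG dinucleotides in the mm10 sequence differed by a median of -2.20 points in CD11b+ (899 regions) and -12.3 points in CD4+ cells (813 regions).

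Lower methylation in R878H/+ cells was the rule: 1167 of 1255 regions (93.0%) in CD11b+ and 2252 of 2298 (98.0%) in CD4+ cells were lower, beside 93.5% and 95.5% of all autosomal regions listed. Large losses made up a greater share of the high-count regions than of all regions. In CD11b+ cells 455 regions (36.3%) lost more than 20 points, whereas 6.95% of all autosomal regions did. In CD4+ cells 740 regions (32.2%) lost more than 20 points, against 6.17% of all. Losses above 40 points were found in 57 CD11b+ (4.54%) and 94 CD4+ regions (4.09%), beside 0.249% and 0.172% of regions with 30 or fewer cytosines. Losses above 50 points were found in 17 (1.35%) and 18 (0.783%), beside 0.0286% and 0.0158%. By number, most losses above 40 points lay in regions with 30 or fewer cytosines (1010 in CD11b+ and 937 in CD4+ cells). The opposite change was uneven between the cell types: 36 CD11b+ regions (2.87%) gained more than 20 points, where 0.209% of all autosomal regions did, against 0 of 2298 CD4+ regions, where 0.00876% of all did.

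**Figure D1:**
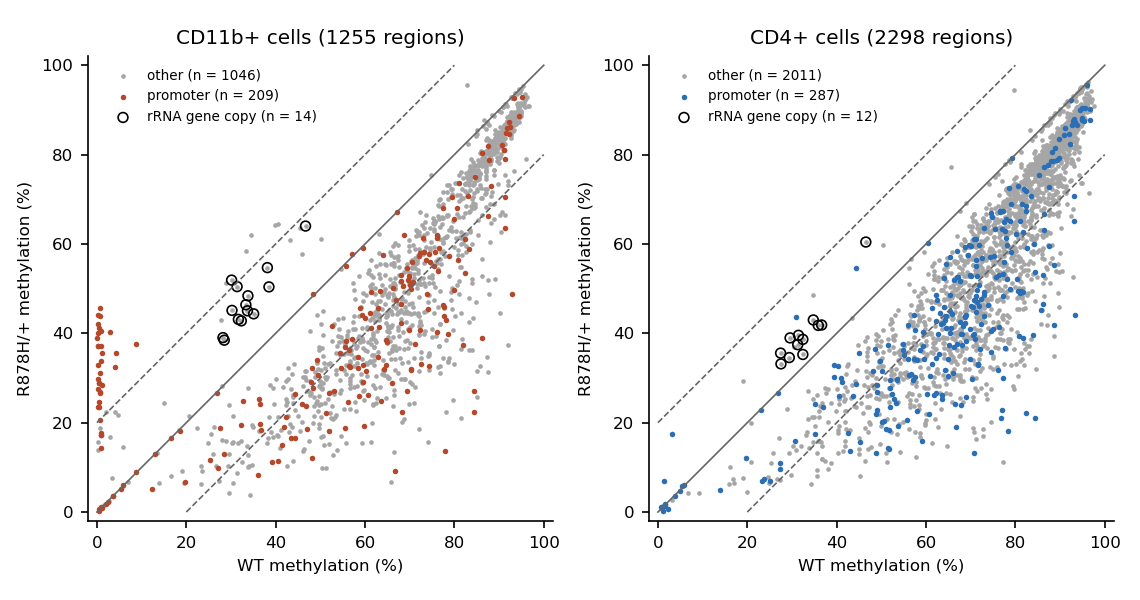
WT (x axis) and R878H/+ (y axis) methylation of each region with 31 or more CpG cytosines, in percent, with 1 point per region. The solid line marks equal levels and the dashed lines a difference of 20 points; 455 CD11b+ and 740 CD4+ points lie below the lower dashed line, and the promoters at the left edge that lie high are present in the CD11b+ panel.

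The median difference was lower where more cytosines were counted. In CD11b+ cells the median difference was -6.50 points at exactly 10 cytosines, -10.9 at 26 to 30, -14.3 at 31 to 35, -21.1 at 41 to 50 and -34.6 above 60, where only 26 regions were left and the quartiles ran from -44.4 to 10.7. In CD4+ cells the same steps gave -6.83, -9.41, -11.2, -19.2 and -29.7 points, the last over 36 regions. The limit itself marks no jump: regions with 30 cytosines differed by -14.6 points and those with 31 by -14.5 in CD11b+ cells, and by -11.0 and -9.61 in CD4+ cells. Above 60 cytosines, 10 of the 26 CD11b+ regions were higher in R878H/+ cells, and 9 of the 10 were pieces of the ribosomal RNA gene copy described below. Without that copy, 17 CD11b+ regions were left above 60 cytosines, with a median of -40.3 points and 1 higher, and 34 CD4+ regions with a median of -30.4.

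**Figure D2:**
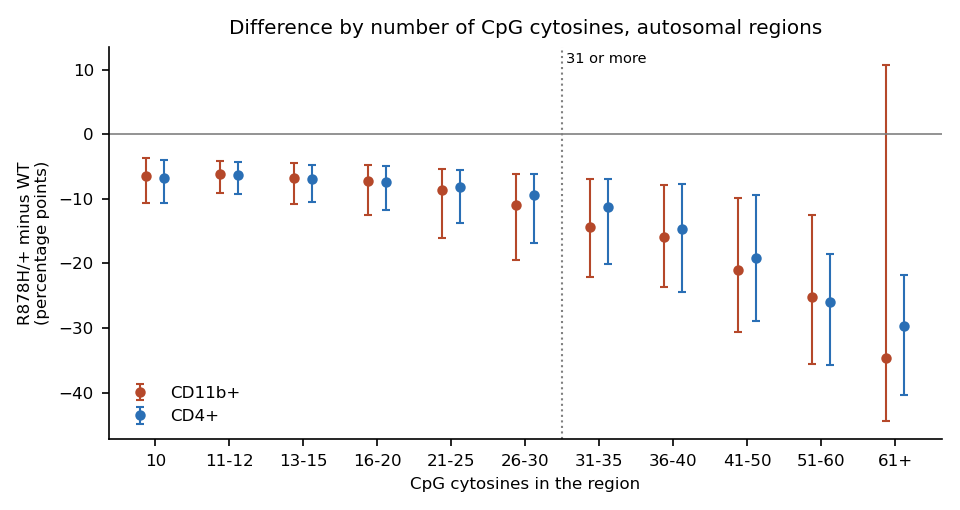
Median difference (R878H/+ minus WT, percentage points) of all autosomal regions by their number of CpG cytosines; bars run from the first to the third quartile over regions. Right of the dotted line, the medians go down to -34.6 in CD11b+ and -29.7 in CD4+ cells.

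The gap between high-count and other regions was also present at matched WT levels. Among CD11b+ regions with a WT level of 60 to 70%, the 237 high-count ones differed by a median of -21.5 points and the 22347 others by -14.9. For CD4+ cells the same range gave -21.8 points over 325 regions and -14.6 over 24763. At 70 to 80% the values were -19.3 and -11.6 points in CD11b+ and -18.997 and -11.6 in CD4+ cells. Regions that were nearly fully methylated in WT cells (90% or more) hardly separated, with -5.58 and -4.86 points in CD11b+ and -6.10 and -5.18 in CD4+ cells. At the other end, high-count regions below 10% in WT were higher by a median of 21.6 points in CD11b+ cells (58 regions), and differed by -0.12 points in CD4+ cells (18 regions).

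**Figure D3:**
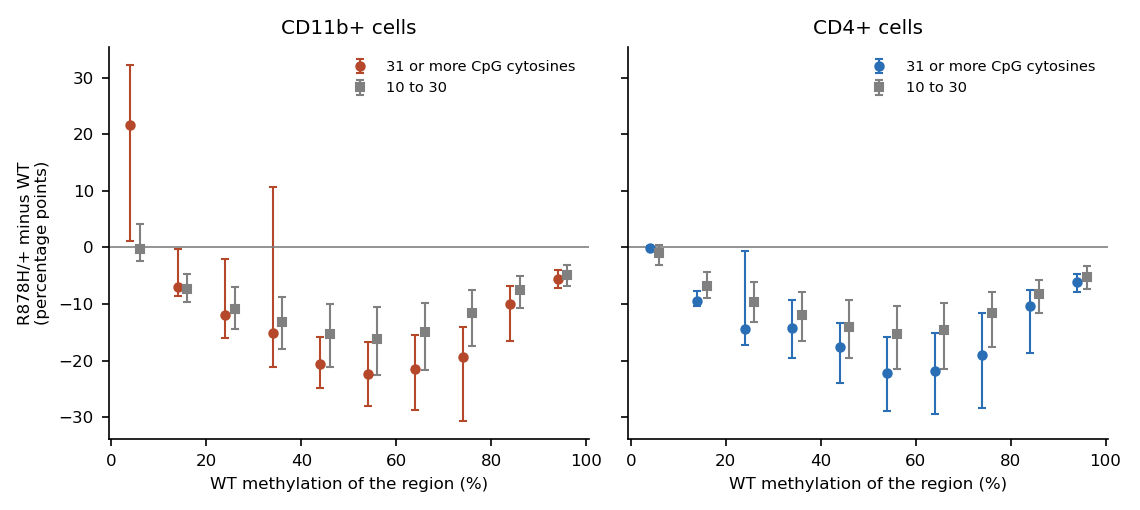
Median difference with quartile bars by WT methylation in steps of 10%, for regions with 31 or more CpG cytosines (circles) and for those with 10 to 30 (squares). Between 40 and 80% the circles lie below the squares in each cell type, and the CD11b+ circle below 10% lies at 21.6 points.

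Density separated the regions as well. Sparse regions with fewer than 1.5 CpG dinucleotides per 100 bp differed by -9.45 points in CD11b+ and -8.40 in CD4+ cells. At 1.5 to 3 per 100 bp the medians were -17.5 and -15.9 points, and at 3 to 6 they were -23.7 and -25.5. Regions with 30 or fewer cytosines and a density of 3 to 6 per 100 bp differed by a median of -5.58 and -5.53 points. Among regions with 30 or fewer cytosines, the share with a loss of more than 20 points rose over these 3 steps, at 4.09%, 9.60% and 10.98% in CD11b+ cells. For CD4+ cells the shares were 3.65%, 8.80% and 10.1%. Above 6 CpGs per 100 bp the shares were lower again, at 5.53% and 5.96%. Among high-count regions of that density the cell types parted. The 93 CD4+ regions kept a median of -25.1 points. The CD11b+ regions had a median of 9.29, with 42 that lost and 31 that gained more than 20 points.

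Regions that met CpG island criteria (at least 200 bp, GC above 50%, observed over expected CpG above 0.6) numbered 135 in CD11b+ and 124 in CD4+ cells. Those already methylated in WT cells, at 10% or more, had among the deepest losses: the 90 in CD11b+ cells differed by a median of -27.1 points, and those in CD4+ cells went from 72.8% to 35.6% at the median, with a median difference of -29.4. Islands below 10% in WT, 45 in CD11b+ and 9 in CD4+ cells, had median differences of 23.0 and -0.11 points. Repeats were a minor part, since 14 CD11b+ (1.12%) and 21 CD4+ regions (0.914%) were masked as repeats over more than 50% of their length. Among regions with 30 or fewer cytosines the shares were 7.23% and 8.19%.

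Within 1 kb of the start of a protein-coding transcript lay 209 CD11b+ regions (16.7%) and 287 CD4+ regions (12.5%), against 6.20% and 5.43% of the regions with 30 or fewer cytosines. Exons outside promoters held 227 and 397 regions, introns 394 and 802, and intergenic sequence 425 and 812. In CD4+ cells the promoters had the lowest median, with a difference of -20.5 points and 145 of 287 (50.5%) past a loss of 20 points, compared with -14.5 in exons, -13.2 in introns and -11.6 between genes. In CD11b+ cells the 4 classes lay close together, at -16.0, -16.4, -15.7 and -14.1 points, and the promoter class was split between 78 losses and 29 gains of more than 20 points. CD11b+ promoters that were methylated at 10% or more in WT, 164 of them, differed by -18.95 points, and 47.6% lost more than 20.

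Per 1000 listed regions, the share with 31 or more cytosines was lowest on chromosome 1 (2.39) and highest on chromosome 17 (3.896) in CD11b+ cells, where 14 of the 69 regions lie in the ribosomal RNA gene copy. Without those, chromosome 17 had 3.11 and chromosome 10 was highest, with 3.72. The share ran from 2.97 on chromosome 16 to 6.01 on chromosome 19 in CD4+ cells. Most regions stood alone, and 110 CD11b+ and 139 CD4+ regions had another within 5 kb. The longest such runs were in the ribosomal RNA gene copy of chromosome 17. The next in CD11b+ cells, with 4 regions each, were at *Gbx2*, a homeobox gene of brain patterning (-42.3 to -23.6 points), and at *Abt1* (-30.04 to -10.5). In CD4+ cells runs of 3 lay at *Gbx2* (-32.4 to -24.6), *Meis1*, *Ankrd33b*, *Tiam1* and *Hoxa5*.

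The regions rarely had the same limits in both cell types, because each table was segmented by itself. A region of the other cell type with 31 or more cytosines overlapped 218 CD11b+ regions (17.4%) and 216 CD4+ regions (9.40%), compared with 0.783% and 0.383% of the regions with 30 or fewer. These shares were not matched for length. Median length was 1319 against 503 bp in CD11b+ and 1348 against 496 bp in CD4+ cells, and a longer region meets another more easily. Some listed region of the other table, whatever its size, overlapped 1170 CD11b+ (93.2%) and 2007 CD4+ regions (87.3%). The 210 overlapping pairs outside the ribosomal RNA gene copy had a larger difference than all high-count regions together: their medians went from 65.7% to 33.9% in CD11b+ and from 73.0% to 39.9% in CD4+ cells, and 160 pairs lost more than 20 points in both. In 165 pairs (78.6%) the differences of the cell types were within 10 points of each other, and in 5 they were more than 20 points apart.

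Among the pairs, the median of the WT level in CD11b+ minus that in CD4+ cells was -5.56 points. The region beside *Slc38a10*, an amino acid transporter gene, had a WT level of 34.4% in CD11b+ and 79.6% in CD4+ cells, with differences of -30.6 and -51.99 points. The pair at *Mn1*, a transcriptional coregulator gene, had the reverse order, with WT levels of 52.9% and 25.8% and differences of -40.3 and -12.5 points. These pairs were chosen after their values were seen, and their limits differ between the tables.

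Several of the largest losses lay at homeobox and blood transcription factor genes. Regions within 5 kb of a *Hox* gene or of a listed blood transcription factor gene were 5 of the 10 largest losses in CD11b+ cells, 2 of them at *Runx1*, and 2 of the 10 in CD4+ cells, beside 46 of all 1255 (3.67%) and 49 of all 2298 regions (2.13%). The *Hoxa5* promoter, at the start of a homeodomain factor of body patterning, went from 77.9% to 13.7% in CD11b+ cells (chr6:52203675-52204998, 97 cytosines) and from 84.3% to 21.02% in CD4+ cells (chr6:52204300-52204768, 49 cytosines). In the same cluster, the region at *5730596B20Rik* inside *Hoxa3* (chr6:52177033-52177560) went from 84.3% to 22.4% in CD11b+ cells, and the overlapping CD4+ region from 88.5% to 41.9%. The differences of -64.2 and -61.9 points in CD11b+ cells compare with a median of -15.6 over all high-count regions.

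In *Gfi1*, which encodes a transcriptional repressor of blood cell development, an exonic region (chr5:107720934-107722325) went from 81.5% to 21.2% in CD11b+ cells. The CD4+ region there had 86 cytosines and stood at 87.3% in WT and 44.1% in R878H/+ cells. *Runx1*, a factor needed for definitive hematopoiesis, had 2 of the 10 largest CD11b+ losses, 1 in an intron (74.1% to 15.7%) and 1 at a promoter (84.5% to 27.0%). Its relative *Runx3*, active in T cell differentiation, was among the 10 largest CD4+ losses, with an exonic region (chr4:135154894-135155435) that went from 74.5% to 20.2%. The overlapping CD11b+ region at *Runx3* held fewer than 31 cytosines and showed 77.4% and 24.5%.

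*Mex3a*, which encodes an RNA-binding protein, had the largest CD4+ loss, from 77.2% to 11.2% over 60 cytosines (chr3:88536350-88536954). In CD11b+ cells the matching exonic region went from 65.9% to 6.68%. The promoter region of *Arhgef18*, a guanine nucleotide exchange factor, began at the same base in both tables (chr8:3392677) and went from 66.7% to 9.25% in CD11b+ and from 82.4% to 22.3% in CD4+ cells. Both genes thus had lower levels in CD11b+ than in CD4+ cells under each genotype.

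The other large CD11b+ losses were in an intron of *Bahcc1* (85.1% to 25.7%), in an exon of *Fbxl8*, an F-box protein gene (78.2% to 22.4%), and in intergenic sequence 154364 bp from *Gm12830* (87.5% to 31.3%). The other large CD4+ losses were at the promoters of *Nradd*, a death-domain receptor relative (78.4% to 18.1%), *Pwwp2b* (70.8% to 13.2%) and *Polg*, the mitochondrial DNA polymerase (76.7% to 20.95%). They were also in an exon of *Cfap99* (72.8% to 18.5%), and in intergenic sequence with the nearest starts at *Fzd9*, a Wnt receptor (72.6% to 16.98%), and *Tab2*, a signalling adaptor (71.3% to 16.3%). The overlapping CD11b+ region at *Nradd* held 56.7% in WT and 3.48% in R878H/+ cells. Of the 20 largest losses, each had an overlapping region in the other table with a difference of -40.2 points or below.

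**Figure D4:**
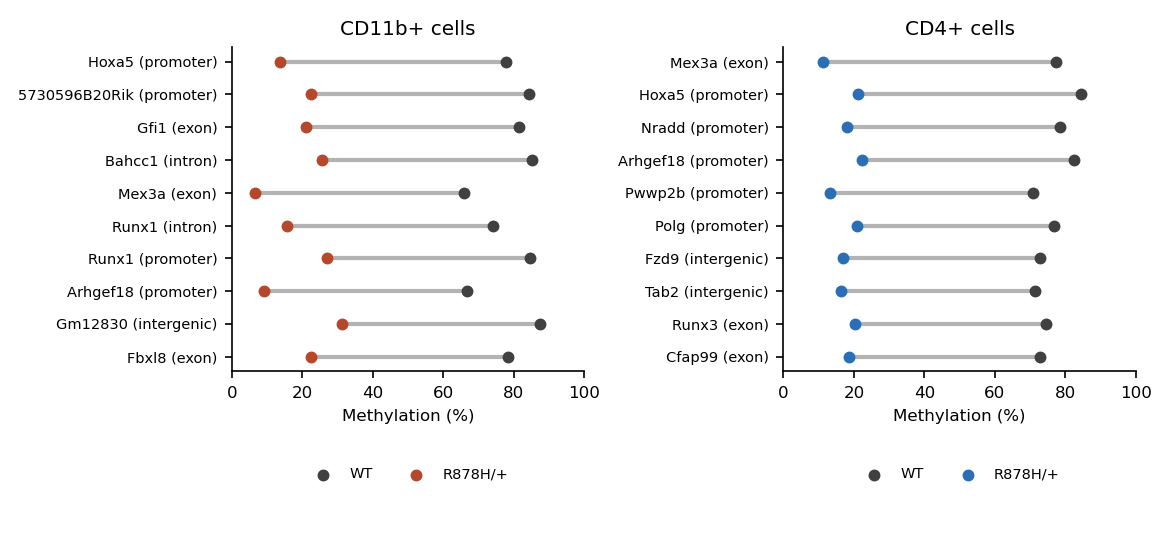
Methylation (percent) of the 10 regions with the largest loss in each cell type, in WT (dark points) and R878H/+ (coloured points), named by overlapping or nearest gene. WT points sit between 65.9 and 87.5% and R878H/+ points between 6.68 and 31.3%.

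The regions with most cytosines, apart from the ribosomal RNA gene copy, were an exonic region of *Snx20*, a sorting nexin gene, in CD11b+ cells (105 cytosines, 85.7% to 32.7%), and the region over *Insl3* and *Jak3* in CD4+ cells (103 cytosines, 70.6% to 39.5%). In CD4+ cells the promoter of *1700037H04Rik* followed with 89 cytosines (3.20% to 17.5%) and the *Gfi1* region with 86, and then *Fbxl8* and an intergenic region 39279 bp from *Pttg1* with 85 each and differences of -40.99 and -20.6 points. The longest regions lost less. In CD11b+ cells these included regions by *Atp6v0c* (3486 bp, -12.2 points), *Slc9b1* (-7.83), *Stard13* (-7.36) and *Mapk14* (-17.5), and in CD4+ cells by *Dok4* (4004 bp, -9.08), *Maf* (-15.8), *Batf3* (-11.9), *Pttg1* (-20.6) and *Melk* (-5.97). From 500 bp upward the loss was smaller in longer regions: regions of 500 to 1000 bp differed by a median of -20.4 points in CD11b+ and -19.7 in CD4+ cells, and those of 2000 bp or more by -10.6 and -8.83. Regions under 500 bp stood apart in CD11b+ cells, where 58 of 94 were higher in R878H/+ cells and the median was 13.2 points. The 90 CD4+ regions of that length had a median of -19.6 points.

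Within 5 kb of 975 of 20807 autosomal protein-coding genes (4.69%) lay a CD11b+ region, and within 5 kb of 1623 (7.8%) a CD4+ region. A region with a loss of more than 20 points lay near 397 genes (1.91%) in CD11b+ and 656 (3.15%) in CD4+ cells, and 194 genes had such a region in both. The genes with most regions in CD11b+ cells were *Hoxa3* and the gene model *Gm28308* that spans it (7 each), the 4434882 bp gene model *Gm20388* (6), *Runx1* (5) and *Zfhx3* (5). In CD4+ cells they were *Gm20388* (14), the Rac exchange factor gene *Tiam1* (6), the ETS factor gene *Etv6* (5), *Gm28308* (5) and *Gse1* (5). The 7 regions at *Hoxa3* ranged from -64.2 to -14.5 points, and the 5 at *Runx1* from -58.5 to -10.2.

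Among 53 transcription factor genes of blood development, 16 (30.2%) in CD11b+ and 21 (39.6%) in CD4+ cells had a region with a loss of more than 20 points within 5 kb. For all genes the shares were 1.91% and 3.15%. Gene length was not matched in this or the later lists, and a longer gene has more room for a region. *Runx1*, for instance, spans 224684 bp and *Etv6* 234459 bp. The 35 CD11b+ regions near the 53 genes differed by a median of -27.0 points and the 38 CD4+ regions by -28.1. Besides *Gfi1*, *Runx1* and *Runx3*, the largest loss was at *Gata2*, a stem and progenitor cell factor, which had an intergenic CD4+ region (chr6:88190164-88190959) going from 88.6% to 35.01%. The 39 *Hox* genes had such a region for 6 (15.4%) in CD11b+ and 12 (30.8%) in CD4+ cells, and neighbouring genes share regions. Their 11 regions differed by a median of -27.6 points in CD11b+ and -34.6 in CD4+ cells. Outside the *Hoxa* cluster, a CD4+ region by *Hoxb5* went from 71.3% to 29.99%.

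Developmental transcription factors outside the *Hox* clusters had a region with such a loss for 5 of 130 genes (3.85%) in each cell type. The shares of all genes were 1.91% in CD11b+ and 3.15% in CD4+ cells. An intronic region of *Prdm16*, a zinc-finger regulator, went from 70.9% to 24.5% in CD11b+ and from 75.9% to 32.4% in CD4+ cells. *Gbx2* reached 69.3% to 27.0% in CD11b+ cells, and regions by *Olig3* and *Nkx2-3* had differences of -34.0 and -30.9 points in CD4+ cells. The gamma protocadherins, adhesion molecules whose exons lie in tandem on chromosome 18, share their regions: 21 of 56 protocadherin genes counted rest on 2 CD11b+ and 4 CD4+ regions, the lowest of which went from 70.3% to 30.1% in CD4+ cells.

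Genes of the T cell receptor complex and coreceptors had a region with a loss of more than 20 points for 1 of 19 (5.26%) in CD11b+ and 3 of 19 (15.8%) in CD4+ cells. Across all genes these shares were 1.91% and 3.15%. In CD4+ cells, *Cd6*, a costimulatory receptor, went from 58.4% to 23.2%, *Lck*, the coreceptor-bound kinase, from 52.9% to 20.8%, and *Ctla4*, an inhibitory receptor, from 80.6% to 52.4%. *Cd247*, the zeta chain of the receptor, had an intronic region going from 79.2% to 49.3% in CD11b+ cells, while its promoter was higher in R878H/+ CD4+ cells (30.8% to 43.6%). Myeloid surface and granule genes gave 0 of 21 in CD11b+ and 2 (9.52%) in CD4+ cells, *Csf2ra* (-21.7 points) and *Cx3cr1* (-20.2). The myeloperoxidase gene *Mpo* had a promoter region that differed by -14.9 points in CD11b+ and -14.6 in CD4+ cells, and the region at *Tlr2* by -0.99 points in CD4+ cells, from 1.19%.

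Genes of inflammation, of bone resorption and of mTOR signalling, are subjects of the study. A high-count region lay within 5 kb of 3.13% of the inflammatory genes in CD11b+ and 12.5% in CD4+ cells, of 7.14% of the osteoclast genes and of 5.26% of the mTOR genes in each, beside 4.69% and 7.8% of all genes. Of 32 genes for inflammatory cytokines and their receptors, 0 in CD11b+ and 1 in CD4+ cells had a region with a loss of more than 20 points: *Csf3*, the granulocyte colony-stimulating factor gene (66.98% to 39.5%), beside 1.91% and 3.15% of all genes. *Tgfb1*, *Il12b* and *Tnf* had CD4+ regions with differences of -15.7, -9.72 and -9.34 points. The only CD11b+ region by an inflammatory gene lay within 5 kb of *Il17ra* and was higher in R878H/+ cells (2.83% to 16.9%). Of 28 genes of osteoclast differentiation, 1 in each cell type had a loss of more than 20 points. This was *Nfatc1*, the master factor of osteoclasts (-26.6 points in CD11b+ and -22.6 in CD4+ cells). Its other region differed by -5.20 and -12.2 points. *Junb*, on the same list, had a CD11b+ promoter region that gained more than *Nfatc1* lost (0.23% to 44.1%). The 38 genes of the mTOR complexes and their regulators gave 0 losses of more than 20 points in each cell type. Their regions were at *Rptor* (-7.65 points in CD4+ cells), *Hif1a* (33.8% and 27.8% in CD11b+), *Eif4ebp1* (0.26 in CD4+) and *Rraga*, a Rag GTPase gene whose promoter went from 0.48% to 23.5% in CD11b+ cells.

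For the lists that follow, the shares of all genes with a loss of more than 20 points were 1.91% in CD11b+ and 3.15% in CD4+ cells. DNA methylation and Polycomb genes gave 0 of 29 in CD11b+ and 1 (3.45%) in CD4+ cells, a promoter region of *Jarid2* (76.4% to 41.4%). *Tet1*, a methylcytosine oxidase gene, had an intronic region that differed by -15.6 points in CD11b+ cells. Of 30 autosomal imprinted genes, 4 (13.3%) in CD11b+ and 1 (3.33%) in CD4+ cells had a loss of more than 20 points. These were *Trappc9* (-30.7), *Inpp5f* (-30.1) and *Kcnq1* (-24.7) in CD11b+ cells and *H13* in both (-20.3 and -27.3). Germline genes gave 0 and 1 (3.57%) of 28, the meiotic cohesin gene *Rec8* (-26.3 points in CD4+ cells), beside *Tuba3a* (-7.08) and *Tdrd1* (-4.22). Axon guidance genes gave 1 (3.13%) and 2 (6.25%) of 32: *Ntn1* in CD11b+ (-21.7), and *Robo3* (-33.4) and *Plxna4* (-28.0) in CD4+ cells. *Nrp2* differed by -18.96 points in CD11b+ cells.

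Gains of more than 20 points made up a smaller class, with 36 CD11b+ regions and 0 CD4+ regions. Of the 36, 30 were below 10% in WT cells, and 29 of the 30 lay within 1 kb of a gene start. The 29 promoter regions were short and dense, with a median length of 346 bp and a median of 10.3 CpGs per 100 bp; 21 lay downstream of the start, 5 upstream and 3 across it. The largest gains were at *Pcbp1*, an RNA-binding protein gene (0.58% to 45.6%, chr6:86525160-86525812), and *Junb*, a subunit of the AP-1 transcription factor (0.23% to 44.1%). They were followed by *Zfp36l2*, a factor of mRNA decay (0.78% to 43.8%), the kinase gene *Gsk3b* (0.31% to 42.1%) and the zinc-finger gene *Maz* (0.54% to 41.2%). Over the 29 promoters the median level went from 0.54% to 35.6%.

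The 58 CD11b+ regions below 10% in WT, including these 30, had a median of 0.95% in WT and 22.9% in R878H/+ cells, and 47 were higher in the mutant. Regions with 30 or fewer cytosines and a WT level under 10% gained more than 20 points in 749 of 8346 cases (8.97%), beside 30 of 58 (51.7%) here. In CD4+ cells none of 18 did, and their medians were 1.98% and 2.24%. A CD4+ region was listed over 4 of the 29 CD11b+ promoters, and its difference ran from -3.56 to -0.3 points. The remaining CD11b+ promoter gains have no CD4+ value in the table, so for them the cell types cannot be compared. Shorter listed regions at promoters of marker genes went both ways in CD11b+ cells. Of 9 myeloid genes with a value, 3 were higher in R878H/+ cells, with 0.65% and 47.5% at *Cebpb*, 2.02% and 32.3% at *Cebpa*, and 0.78% and 38.7% at *Cd14*. The other 6 were lower, among them *Spi1* (42.6% and 25.9%), *S100a8* (63.0% and 37.1%) and *Fcgr3* (50.9% and 37.9%). Of 6 T cell genes, 3 were higher, for instance *Bcl11b* (3.33% and 18.9%). With means over mice alone, a gain of this size in each mouse and a larger gain in some of them cannot be told apart.

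**Figure D5:**
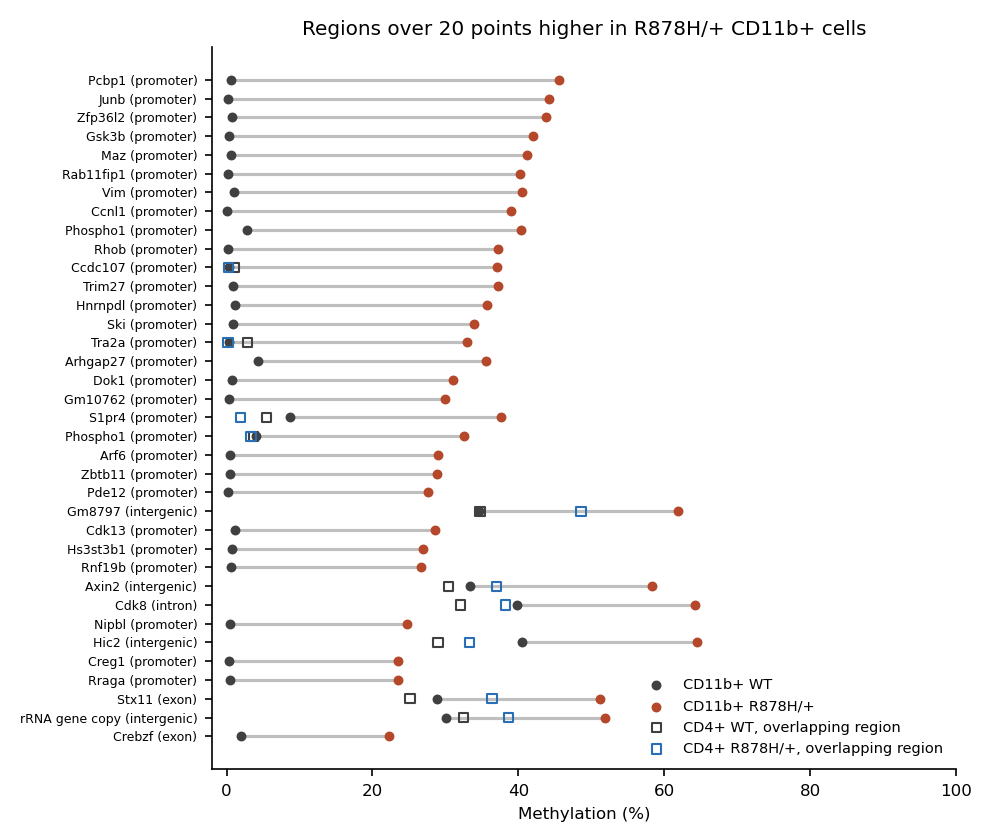
Methylation (percent) of the 36 regions that were more than 20 points higher in R878H/+ CD11b+ cells (filled circles), with the values of the overlapping CD4+ region where the table lists 1 (open squares, 10 regions). At promoters the CD11b+ WT circles lie at or below 8.72%, and the 4 promoters with squares show CD4+ levels slightly lower in R878H/+ than in WT cells.

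The remaining 6 of the 36 regions were not promoters, began at 28.8 to 40.5% in WT, and had a listed CD4+ region each, which was higher in R878H/+ cells by 4.3 to 13.8 points. Regions with similar WT levels that were higher in R878H/+ cells were grouped at the ribosomal RNA genes. In the copy of the ribosomal RNA gene on chromosome 17 (chr17:39843013-39848827), a repeated gene of which the reference holds only a part, 14 CD11b+ and 12 CD4+ regions were all higher in R878H/+ cells. In CD11b+ cells WT levels were 28.2 to 46.7% and differences 9.29 to 21.8 points, and in CD4+ cells WT levels were 27.5 to 46.5% and differences 2.83 to 13.9 points. At least 96.1% of the CpG cytosines of each were counted. The region with most cytosines, 189 over the fifth sequence printed above, stood at 31.7% and 43.1% in CD11b+ cells. Reads from the many copies of this gene are placed on the few that the reference holds, so these levels are averages over copies.

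Listed regions of the mitochondrial genome differed in the same direction as these gains in CD11b+ but not in CD4+ cells. All 20 were higher in R878H/+ CD11b+ cells, with medians of 15.1% and 18.1%, and all 21 were lower in R878H/+ CD4+ cells, with medians of 13.8% and 8.56%. The median mitochondrial difference was 2.67 points in CD11b+ and -5.77 in CD4+ cells. Autosomal CD4+ regions with 30 or fewer cytosines differed by -6.83 points, from a much higher WT median (89.98%). How the mitochondrial shifts relate to the gains, or to the CD4+ losses, was not tested.

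The CD4+ gains were smaller. Of 46 regions that were higher in R878H/+ cells, 12 lay in the ribosomal RNA gene copy. The largest went from 79.8% to 94.4% in an exon of *Cdk5rap1*, a mitochondrial tRNA-modifying enzyme gene, and the overlapping CD11b+ region from 82.8% to 95.6%. The promoter of *1700037H04Rik* went from 3.20% to 17.5% over 89 cytosines, and the overlapping CD11b+ region from 4.01% to 20.8%. An intergenic region by *Gm8797* went from 34.8% to 48.6% in CD4+ cells, and the promoter region of *Cd247* from 30.8% to 43.6%, with 78.5% and 87.6% in the overlapping CD11b+ region. The gains that stood out in CD4+ cells therefore had an overlapping CD11b+ region that was higher in R878H/+ cells too.

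The cell types were checked at regions within 1 kb of marker gene starts, none of which held 31 cytosines. Of 7 myeloid genes with a value in both tables, 6 were lower in CD11b+ WT cells, for instance *Spi1* (42.6% against 90.03% in CD4+) and *S100a8* (63.0% against 77.6%). *Itgam*, which encodes CD11b, stood at 79.4% and 81.9%. Of 3 T cell genes, 2 were lower in CD4+ WT cells, and the CD4+ table lists no region at *Cd4* or *Cd3g*. Of 4 B cell genes, 3 were lower in CD11b+ WT cells, among them *Cd79a* (41.6% against 66.4%). The part of B cells or of other cells carried along on the columns in the CD11b+ values was not tested.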

How the data were processed

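Whole-genome bisulfite libraries were made from DNA of splenic CD11b+ and CD4+ cells and, per the study's methods, aligned to mm10 with BISCUIT and segmented by metilene; versions and segmentation settings are not given in the sources used here. The study sets limits on CpG number, methylation difference and false discovery rate for calling a region differentially methylated; these were not applied here, and the tables list regions that fall short of them. The authors deposited 1 table per cell type, with no header, that lists each region with its coordinates, its number of CpG cytosines and its mean methylation in percent for each genotype. The tables also hold the authors' own comparison of the genotypes (a difference, 2 p-values and a q-value per region), which was not used. The percent values deposited are means over the mice of a genotype, so depth and the spread between mice are unknown, and no interval over reads can be given.

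Regions on chromosomes 1 to 19 with at least 31 counted cytosines were kept. The difference was recomputed as R878H/+ minus WT. Starts, counted from 0 in the tables, are printed from 1. Genes, exons and starts came from GENCODE M21, and sequence from the RefSeq copy of GRCm38.p6, the build of the tables. A promoter reached 1 kb to each side of a protein-coding transcript start, and exon, intron and intergenic followed in that order. Island criteria were applied to the sequence of the region. Regions of the cell types were paired by 1 bp of overlap. Named regions are, per cell type, the 10 largest losses, the 5 largest gains, the 5 with most cytosines and the 5 longest, each called by the protein-coding gene it overlaps or by the nearest start; the 5 genes with most regions within 5 kb; and up to 4 genes with the largest loss from each of 13 gene lists. The limit of 31 cytosines, the gene lists and the named regions were chosen with earlier results of these data known. Printed sequences are 300 bases at the centre of a region, or the nearest stretch clear of untranslated exons. No test was run, since the tables give 1 mean per genotype; counts and medians over regions are descriptions. Calculations used Python with pandas and numpy, whose functions for overlap, distance and medians were tested on simulated data. A few of these items are not reported here.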

Additional observations from a re-analysis of the deposited data

How the results depend on the processing

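The limit of 31 cytosines set the size of the values: at 21 or more the median difference was -9.48 points in CD11b+ and -8.74 in CD4+ cells, with 21.01% and 16.8% of regions past a loss of 20 points, and at 51 or more it was -28.5 and -26.9 points, with 61.2% and 72.7%. Choosing regions by at least 31 CpG dinucleotides in mm10 gave -2.20 and -12.3 points and 24.0% and 36.04%. Weighting regions by their cytosines gave 34.5% past the loss in CD4+ cells. A loss of more than 10 points was found in 65.2% of CD11b+ and 60.9% of CD4+ regions, and of more than 30 points in 14.5% and 13.1%. Promoters of 2 kb each side held 22.5% and 17.6% of regions, and those of all annotated genes 30.9% and 24.5%. Overlap with a high-count region of the other cell type by at least 50% of both was 13.5% and 7.35%, and overlap with any listed region 93.2% and 87.3%. The median difference stayed negative under each of these settings. The contrast with other regions did not hold throughout. Chosen by CpG dinucleotides, the CD11b+ regions had a smaller median loss (-2.20 points) than regions with 30 or fewer cytosines (-6.53). Including the sex chromosomes, and, as settings added after seeing the data, leaving out the ribosomal RNA gene copy or regions with under 50% of their cytosines counted, left the median difference and the share of losses inside the 95% binomial interval of the reported values. That interval is taken over regions, which are not replicates, and does not measure the spread between mice. These settings also keep most of the same regions, so little change could be seen. No paired analysis was possible because the tables hold 1 mean per genotype, and no replicate could be left out for the same reason. Values of single mice and read depth would be needed to give errors.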

Other observations

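Outside the autosomes, regions of the X chromosome with 31 or more CpG cytosines had their own level and their own exception. The 42 CD11b+ regions had a median of 41.7% in WT and 22.5% in R878H/+ cells, and the 63 CD4+ regions 39.3% and 21.8%. All but 1 in each cell type were lower in R878H/+ cells. The exception in both was at *Xist*, the RNA gene of X inactivation, which stood at 51.5% and 72.2% in CD11b+ cells (79 cytosines) and at 52.8% and 71.1% in CD4+ cells (36 cytosines). As background, CpG islands of the inactive X of females are methylated, and males have no inactive X. The sex of the sequenced mice is not in the labels, and its part in these values was not tested. The study reports sex-matched mice for its experiments in general, without the sex of those sequenced.

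Beyond the ribosomal RNA gene copy, 7 CD11b+ regions had more than 95% of their CpG cytosines counted together with an observed over expected CpG above 0.6. All 7 were higher in R878H/+ cells, with a median level of 39.8% in WT and 61.1% in R878H/+ cells. The 7 CD4+ regions of the same kind had a median of 55.8% in WT and 49.7% in R878H/+ cells, and 3 were higher. Without the limit on observed over expected CpG, 7 of 13 CD11b+ and 3 of 51 CD4+ regions were higher in R878H/+ cells. That all 7 CD11b+ regions were higher therefore depends on this limit. Of those 7, 3 gained more than 20 points and are among the gains described above.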
